A study of Homo sapiens with 10 samples.

Results

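The DNA methyltransferases DNMT1, DNMT3A and DNMT3B and their partner UHRF1 are 4 genes, chosen by name as the enzymes that write and copy DNA methylation. The rule lists 8 Ensembl transcripts, 2 of DNMT1, 2 of DNMT3A and 4 of DNMT3B, out of 187626 transcripts in the deposited tables. It lists none of UHRF1, and the reference tables used here pair no Ensembl transcript with a gene, so the level of UHRF1 was not analysed here and every gene level below is a sum over the listed transcripts only. The study used 501Mel, an established human melanoma cell line. Polyadenylated RNA was sequenced from cells given a small interfering RNA named siIRF4 or one named siCTRL, with 3 libraries of each, and the binding of IRF4 carrying an eGFP tag was mapped by ChIP-seq in 2 replicates. Neither the dose, the time after transfection nor the way the tagged protein was expressed is given in the sources used here. IRF4, interferon regulatory factor 4, is a DNA-binding transcription factor of lymphoid and pigment cells.

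DNA methylation in vertebrates sits mostly on the C of CG pairs. DNMT3A and DNMT3B set new methyl groups, and DNMT1 copies the pattern to the new strand after replication. UHRF1 binds half-methylated CG pairs behind the replication fork and brings DNMT1 to them. UHRF1 and DNMT1 are most abundant in dividing cells. DNMT3B is spliced into many forms, some of which lack catalytic activity.

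The libraries held from 129989698 to 203758441 estimated counts each. They did not part by label on the first principal component, which carried 33.6% of the variance of log2 CPM over the transcripts tested: replicate 2 of siCTRL lay on the side of siIRF4 replicates 2 and 3, and replicate 1 of siIRF4 on the side of the other siCTRL libraries. The second component carried 20.1%, and its ends were siCTRL replicate 3 at 185.2 and siIRF4 replicate 1 at -176.2. IRF4 itself, against which the siRNA is directed, and the markers of melanocytic and other cells were not analysed here, and no label was checked against them. Where leaving out a single library turned a gene's log2 fold change or a transcript's share, or moved it by over 1.5 times, the value without it is given. The labels do not say whether the 3 libraries of a group came from separate cultures, so p-values measure the spread between these libraries only.

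The genes lie on 3 chromosomes in RefSeq's annotation of GRCh38.p14. DNMT1 (ENSG00000130816.17) spans chr19:10133346-10194953 and UHRF1 (ENSG00000276043.5) chr19:4903080-4962154. DNMT3A (ENSG00000119772.19) spans chr2:25227874-25342590, and DNMT3B (ENSG00000088305.19) chr20:32762385-32809356. RefSeq's promoter windows, which run from 250 bases before to 50 bases after a transcription start, number 11 for the 4 genes: 1 for DNMT1, 6 for DNMT3A, 1 for DNMT3B and 3 for UHRF1, some of which overlap. Since IRF4 is the factor mapped in the study, 1 window per gene is shown, that with the most matches to GAAA, the core that interferon regulatory factors contact. Capitals mark each GAAA, and each TTTC, which is GAAA on the other strand. Each line reads 5′ to 3′ along the gene.
DNMT1, chr19:10194904-10195203 (-): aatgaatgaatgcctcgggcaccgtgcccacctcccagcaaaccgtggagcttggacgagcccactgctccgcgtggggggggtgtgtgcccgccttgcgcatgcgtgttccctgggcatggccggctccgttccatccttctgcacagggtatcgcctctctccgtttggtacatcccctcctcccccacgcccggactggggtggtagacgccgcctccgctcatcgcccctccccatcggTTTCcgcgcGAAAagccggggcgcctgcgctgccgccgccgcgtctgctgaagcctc
UHRF1, chr19:4909251-4909550 (+): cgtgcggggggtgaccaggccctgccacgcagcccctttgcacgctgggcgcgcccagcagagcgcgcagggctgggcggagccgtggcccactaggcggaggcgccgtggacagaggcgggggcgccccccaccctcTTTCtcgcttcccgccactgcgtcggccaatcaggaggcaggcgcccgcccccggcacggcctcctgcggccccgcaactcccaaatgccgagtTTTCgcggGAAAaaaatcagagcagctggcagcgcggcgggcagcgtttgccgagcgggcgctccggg
DNMT3A, chr2:25252082-25252381 (-): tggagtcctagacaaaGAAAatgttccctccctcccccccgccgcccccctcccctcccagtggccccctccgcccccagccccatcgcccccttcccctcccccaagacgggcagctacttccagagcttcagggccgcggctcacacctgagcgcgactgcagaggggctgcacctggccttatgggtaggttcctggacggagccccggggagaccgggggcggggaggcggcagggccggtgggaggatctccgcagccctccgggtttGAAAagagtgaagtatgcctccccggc
DNMT3B, chr20:32779602-32779901 (+): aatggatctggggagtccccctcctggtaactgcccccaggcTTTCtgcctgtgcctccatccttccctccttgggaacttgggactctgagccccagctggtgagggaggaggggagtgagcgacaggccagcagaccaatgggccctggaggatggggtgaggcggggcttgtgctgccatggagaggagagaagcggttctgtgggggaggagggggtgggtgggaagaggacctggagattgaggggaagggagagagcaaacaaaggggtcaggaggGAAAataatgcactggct

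The window of DNMT3B starts inside the gene's span, at an internal start, and holds 3 CG pairs against 30 in that of DNMT1 and 18 to 46 in those of DNMT3A and UHRF1. No window covers the 5′ edge of the DNMT3B span or of the UHRF1 span. The sequence at those edges was therefore not searched, and the counts here do not describe it. A GAAA on either strand was present in 8 of the 11 windows and in 86.3% of all 35116 promoter windows of the same 300 bases. The longer letters that IRF proteins are known to bind were in none of the 11: neither GGAA and GAAA in that order with any 2 bases between them, the composite of an ETS and an IRF core, nor GAAA and GAAA with any 2 bases between them, the interferon-response repeat, on either strand. Of all windows, 2.82% hold the first and 3.57% the second. This says only that the letters are not in these windows. The E2F-like letters TTTCNCGC, where N is any base, were searched on both strands and were chosen after the windows had been read. They were in 3 of the 11 windows, the 1 of DNMT1 and 2 of UHRF1, and in 3.00% of all windows. Since the choice followed the reading of these windows, the counts do not test whether they hold E2F sites. E2F factors drive genes of S phase. The match of DNMT1 begins 2 bases before the start as GCGCGAAA, and those in the shown window of UHRF1 begin 112 bases before it as TTTCTCGC and 14 bases before it as GCGGGAAA. Each of these overlaps a GAAA or TTTC in capitals, so the same letters count under both searches.

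DNMT1, the copying enzyme, was the most abundant of the 3 measured genes in 6 of 6 libraries. TPM, the authors' abundance per transcript length scaled to 1000000 in each library, allows genes to be set side by side. The summed TPM of DNMT1 was 84.0 ± 11.9 (SD, n = 6), that of DNMT3A 9.32 ± 1.04 and that of DNMT3B 4.34 ± 1.22. The ranges of the 3 genes did not overlap: 61.5 to 93.1 TPM for DNMT1, 8.21 to 11.2 for DNMT3A and 2.15 to 5.71 for DNMT3B. Within a library the TPM of DNMT1 was 9.13 ± 1.77 times that of DNMT3A and 21.5 ± 9.02 times that of DNMT3B. That second ratio ran from 10.8 in siCTRL replicate 3, the library with the least DNMT1, to 37.7 in siIRF4 replicate 1, the library with the least DNMT3B. DNMT3A stood at 2.34 ± 0.889 times DNMT3B, between 1.66 and 4.10. Transcripts of these genes outside the list would add to the sums, and how much was not analysed here.

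The comparison of siIRF4 with siCTRL asks whether targeting IRF4 moves these enzymes. None of the 3 measured genes passed the test. With edgeR's quasi-likelihood test on the estimated counts, 0 of 3 genes had an adjusted p under 0.05, in a table of 83828 rows of which 0% passed, and 0 of 3 had an unadjusted p under 0.05, against 2.14% of all rows. DESeq2 also called 0 of 3, against 0.194% of the rows for which it gave an adjusted p. Limma called 0 of 3 on log2(TPM + 1), against 0% of all rows, and 0 of 3 on log2(TPM + 0.1), against 0.0143%. The values of the groups did not separate for any of the 3 genes, while they did for 7.3% of all rows. The log2 fold changes of the 3 genes had a median of -0.097, beside -0.0065 over all rows tested. In bulk RNA, fewer cells of a kind and less RNA per cell cannot be told apart.

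**Figure D1:**
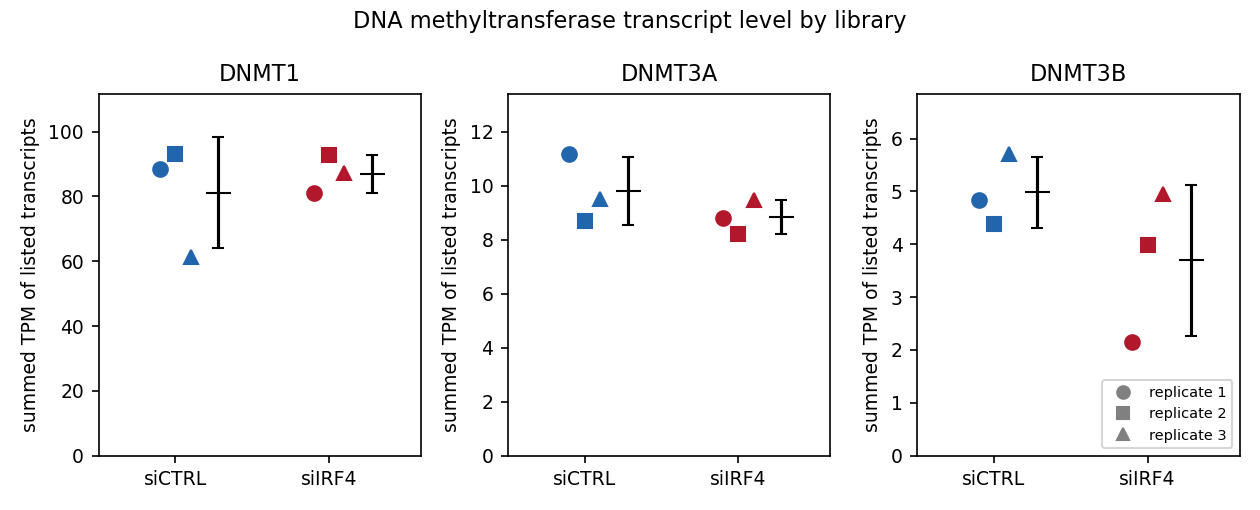
Summed TPM of the listed transcripts of DNMT1, DNMT3A and DNMT3B (y axes, TPM, from 0) in each siCTRL and siIRF4 library (x axes). Symbols are the replicates and black bars are mean ± SD of 3 libraries; the groups overlap for each gene, with siCTRL replicate 3 low for DNMT1 at 61.5 TPM and siIRF4 replicate 1 low for DNMT3B at 2.15 TPM.

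DNMT1 stood at 81.0, 92.8 and 87.2 TPM in siIRF4 replicates 1, 2 and 3, and at 88.6, 93.1 and 61.5 TPM in siCTRL replicates 1, 2 and 3. Replicate 3 of siCTRL is the low library and the others lie close together, so the siIRF4 values lie within the siCTRL range. The means were 87.0 ± 5.90 TPM in siIRF4 and 81.1 ± 17.1 TPM in siCTRL (SD, n = 3 each). The log2 fold change in counts was 0.10 (SE 0.180, edgeR adjusted p rounding to 1), and its 95% interval runs from 0.796-fold to 1.45-fold. It turned to -0.057 without siCTRL replicate 3, and it was 0.21 without siCTRL replicate 2, 0.17 without siCTRL replicate 1 and 0.028 without siIRF4 replicate 2. Replicate 3 of siCTRL also had the smallest total, 129989698 estimated counts, and the part of depth in its DNMT1 value was not tested.

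DNMT3A, a de novo enzyme, had the smallest standard error of the 3. Its TPM was 8.82, 8.21 and 9.47 in siIRF4 replicates 1, 2 and 3 and 11.2, 8.71 and 9.50 in siCTRL replicates 1, 2 and 3. The siCTRL values reach higher, and the ranges overlap. The means were 8.83 ± 0.629 TPM in siIRF4 and 9.80 ± 1.27 TPM in siCTRL (SD, n = 3 each). The log2 fold change in counts was -0.097 (SE 0.146, edgeR adjusted p rounding to 1), with a 95% interval from 0.735-fold to 1.19-fold. Without siCTRL replicate 1, the library with the most DNMT3A, it turned to 0.028, and without siCTRL replicate 3 it was -0.17.

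DNMT3B, the other de novo enzyme, had the largest log2 fold change of the 3 and the largest standard error. It stood at 2.15, 3.99 and 4.96 TPM in siIRF4 replicates 1, 2 and 3, from 818, 1520 and 2026 estimated counts. In siCTRL replicates 1, 2 and 3 it stood at 4.85, 4.38 and 5.71 TPM, from 2009, 2417 and 2066 estimated counts. Replicate 1 of siIRF4 is lowest of all, replicate 2 lies just under the siCTRL libraries, and replicate 3 lies among them. The means were 3.70 ± 1.43 TPM in siIRF4 and 4.98 ± 0.674 TPM in siCTRL (SD, n = 3 each). The log2 fold change in counts was -0.45 (SE 0.295, edgeR adjusted p rounding to 1), or 0.732-fold with a 95% interval from 0.449-fold to 1.19-fold. An exact two-sided permutation test of the log2(TPM + 0.1) values gave p = 0.3, where 3 against 3 libraries allow no p under 0.1. The same exact permutation test gave p = 0.9 for DNMT1 and p = 0.4 for DNMT3A. Without siIRF4 replicate 1 the log2 fold change of DNMT3B was -0.19, and without siIRF4 replicate 3 it was -0.65. With siIRF4 replicate 1 and siCTRL replicate 2 both left out, a choice made after the data were seen, it was -0.28, with an edgeR adjusted p of 0.622. For DNMT3B the interval does not leave out a fall of 2-fold.

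No pair of the 3 genes had a correlation over the 6 libraries that passed its test. On log2(TPM + 0.1), DNMT3A and DNMT3B had a Pearson's r of 0.41 (exact permutation p = 0.364) and a Spearman's rho of 0.66 (exact permutation p = 0.175). DNMT1 had an r of -0.16 (exact permutation p = 0.669) and a rho of -0.54 (exact permutation p = 0.297) with DNMT3A. With DNMT3B it had an r of -0.22 (exact permutation p = 0.560) and a rho of -0.37 (exact permutation p = 0.497). These 3 relations are the whole family, and the Benjamini-Hochberg adjusted p of each r was 0.669. Without the 2 libraries farthest from the median of the first gene named, over the 4 left, r was 0.66 for DNMT3A with DNMT3B, -0.72 for DNMT1 with DNMT3A and -0.90 for DNMT1 with DNMT3B. These values over 4 libraries were not tested. The libraries were picked by the levels themselves, so no relation is read from them. Of the 18543 rows with a mean of at least 5 CPM, those most like DNMT1, DNMT3A and DNMT3B over the 6 libraries had a Pearson's r of 0.998, 0.980 and 0.998 in log2 CPM. Each is the highest r among these rows over only 6 libraries, and the highest r that unrelated rows would give was not tested. The rows are transcripts that no table used here pairs with a gene, and they are not named.

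The isoforms were tested in the table of single transcripts. Of the 8 listed transcripts, 6 passed the filter on low counts. With edgeR's quasi-likelihood test in the table of 83831 transcripts, 0 of the 6 had an adjusted p under 0.05, against 0% of all transcripts, and 0 of 6 had an unadjusted p under 0.05, against 2.14%. DESeq2 called 0 of the 6, against 0.194% of the transcripts with an adjusted p, and limma called 0 of the 6 on log2(TPM + 1), against 0%, and on log2(TPM + 0.1), against 0.0143%. No transcript had groups that did not overlap, against 7.3% of all transcripts tested.

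**Figure D2:**
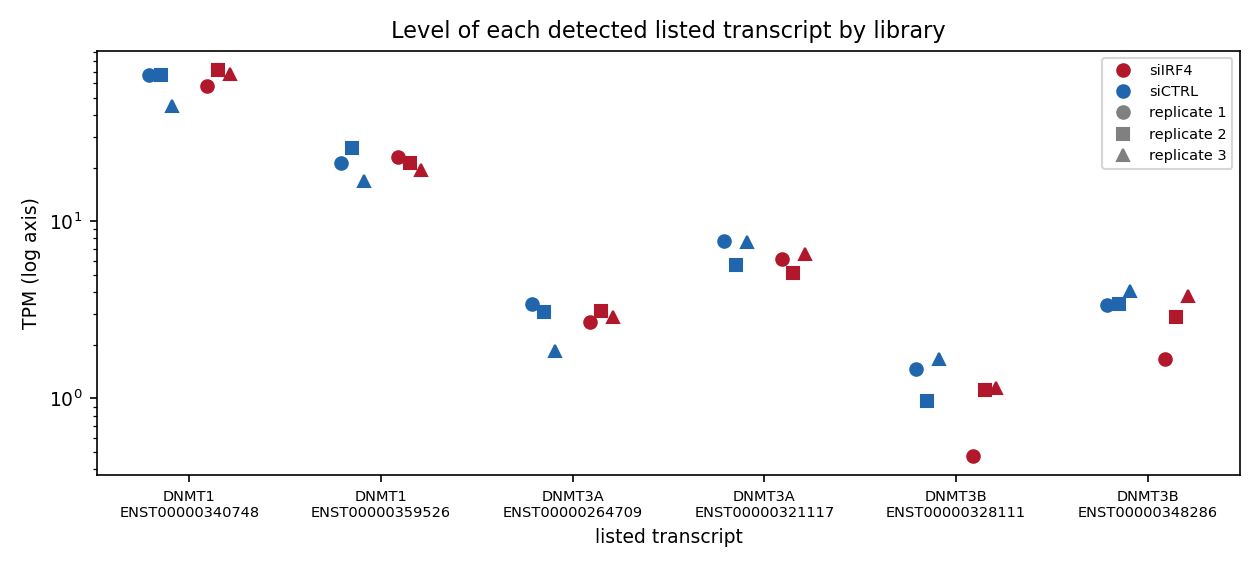
TPM of the 6 detected listed transcripts (x axis) on a log axis (y axis), with 1 point per library, siCTRL in blue and siIRF4 in red and a symbol per replicate. The order of the 2 transcripts within each gene is the same in every library: ENST00000340748.8 of DNMT1, ENST00000321117.9 of DNMT3A and ENST00000348286.6 of DNMT3B are the higher ones.

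ENST00000340748.8, of 5408 bases, carried most of DNMT1. It made up 71.5%, 77.0% and 77.6% of the summed TPM in siIRF4 replicates 1, 2 and 3 and 75.9%, 72.3% and 72.6% in siCTRL replicates 1, 2 and 3. Its mean level over the 6 libraries, 62.7 TPM, ranks 2317 among the 187626 transcripts listed. ENST00000359526.8, of 5206 bases, held the rest at 21.3 TPM, rank 6303. The share of the major transcript was 75.4% ± 3.34 in siIRF4 and 73.6% ± 2.00 in siCTRL (SD, n = 3 each), a difference within the spread (exact two-sided permutation p = 0.5). The difference of 1.74 percentage points was 3.67 without siIRF4 replicate 1, 0.926 and 0.636 without siIRF4 replicates 2 and 3, and 2.90 and 1.09 without siCTRL replicates 1 and 2. The log2 fold changes were 0.13 (SE 0.191) for ENST00000340748.8 and 0.0032 (SE 0.192) for ENST00000359526.8.

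For DNMT3A the shorter transcript was the more abundant. ENST00000321117.9, of 4279 bases, stood at 6.48 ± 1.07 TPM and ENST00000264709.7, of 9501 bases, at 2.84 ± 0.534 TPM (SD, n = 6). In estimated counts, which grow with length, the longer transcript had more in 5 of 6 libraries. In siIRF4 replicate 2 it had 2832 against 2026, while siCTRL replicate 3 had 1613 of the longer and 2869 of the shorter. The share of ENST00000321117.9 in the summed TPM was 69.5%, 62.3% and 69.5% in siIRF4 replicates 1, 2 and 3 and 69.5%, 64.8% and 80.4% in siCTRL replicates 1, 2 and 3. Replicate 3 of siCTRL stands above the other libraries, where ENST00000264709.7 was lowest at 1.86 TPM. The means were 67.1% ± 4.16 in siIRF4 and 71.6% ± 7.99 in siCTRL (SD, n = 3 each; exact two-sided permutation p = 0.6), and the ranges of the groups overlapped. The difference, siIRF4 minus siCTRL, was -4.47 percentage points. It was -0.058 without siCTRL replicate 3, -2.07 without siIRF4 replicate 2 and -7.84 without siCTRL replicate 2. The log2 fold change of ENST00000321117.9 was -0.25 (SE 0.180, 95% interval 0.625-fold to 1.13-fold) and that of ENST00000264709.7 was 0.052 (SE 0.244). With siIRF4 replicate 1 and siCTRL replicate 2 both left out, ENST00000321117.9 had an unadjusted p of 0.0392 and an edgeR adjusted p of 0.361, in a fit where 12.6% of all transcripts had an unadjusted p under 0.05.

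DNMT3B was read from 2 of its 4 listed transcripts, and whether each encodes an active enzyme was not analysed here. ENST00000348286.6, of 4048 bases, stood at 1.67, 2.87 and 3.81 TPM in siIRF4 replicates 1, 2 and 3 and at 3.38, 3.41 and 4.05 TPM in siCTRL replicates 1, 2 and 3. ENST00000328111.6, of 4336 bases and the longest listed for the gene, stood at 0.475, 1.12 and 1.15 TPM in siIRF4 and 1.46, 0.972 and 1.67 TPM in siCTRL. Both are lowest in siIRF4 replicate 1 and highest in siCTRL replicate 3. The log2 fold changes were -0.40 (SE 0.285) for ENST00000348286.6 and -0.59 (SE 0.389) for ENST00000328111.6. These became -0.15 and -0.30 without siIRF4 replicate 1.

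The balance of the DNMT3B transcripts lay in a range of 69.8% to 77.9% over the 6 libraries. ENST00000348286.6 made up 77.9%, 71.9% and 76.8% of the summed TPM in siIRF4 replicates 1, 2 and 3 and 69.8%, 77.8% and 70.8% in siCTRL replicates 1, 2 and 3. The means were 75.6% ± 3.18 and 72.8% ± 4.35 (SD, n = 3 each; exact two-sided permutation p = 0.3). The difference of 2.72 percentage points was 5.21 without siCTRL replicate 2 and 4.53 without siIRF4 replicate 2, and it was 1.22 without siCTRL replicate 1, 1.55 without siIRF4 replicate 1 and 1.73 without siCTRL replicate 3. ENST00000201963.3, of 4255 bases, had an estimated count of 0 in all 6 libraries, and ENST00000353855.6, of 4237 bases, at most 0.0010. A count of 0 allows up to 3 counts, or 0.0147 to 0.0231 CPM in these libraries, for counting error only. Overlapping isoforms share most of their sequence, and the assignment of fragments between them is an estimate, so a value of 0 describes that assignment.

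**Figure D3:**
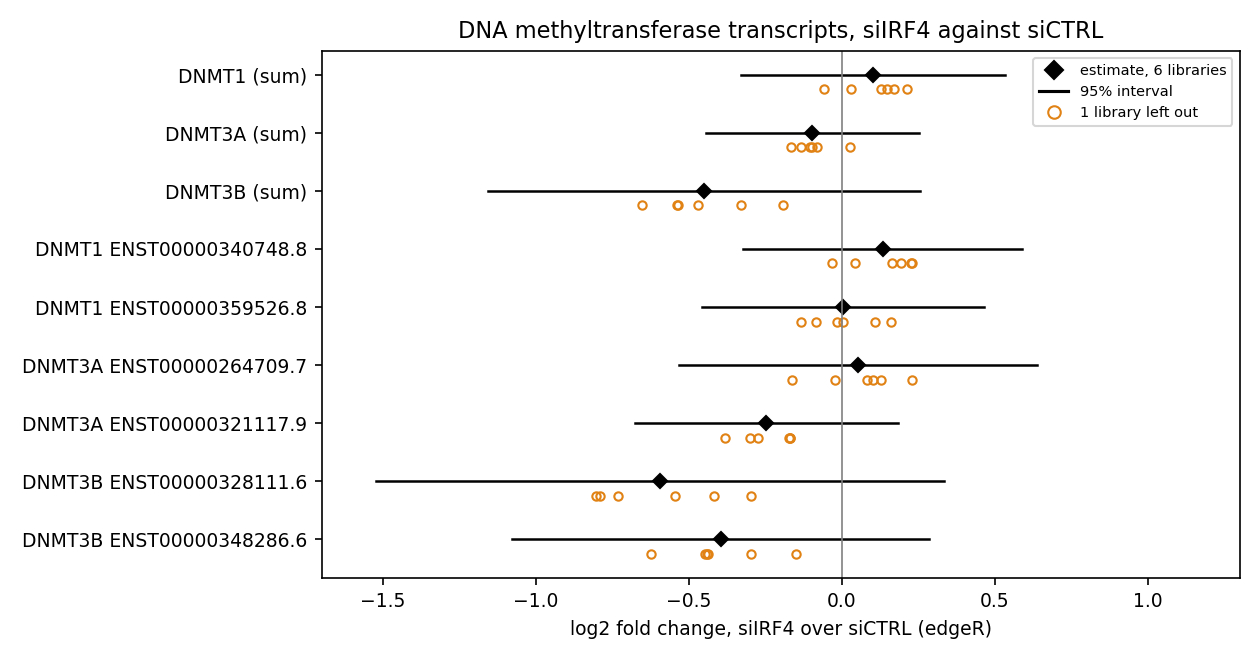
Log2 fold change of siIRF4 over siCTRL (x axis) from edgeR for the 3 gene sums and 6 transcripts (y axis): diamonds are estimates from 6 libraries, lines are 95% intervals and open circles are fits with 1 library left out. Every interval includes 0, and for DNMT3B the circles run from -0.65 to -0.19.

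ChIP-seq peaks of eGFP-tagged IRF4 were examined within 50 kb of DNMT3B, in chr20:31300000-31448000 of hg19. Taking 50 kb off each side leaves a span of 48 kb for the gene, chr20:31350000-31398000, with edges rounded as the rule gives them. The gene lies on the plus strand, so the lower edge is the 5′ one. Each list held 1 peak in the window, and the 2 peaks did not overlap. How many peaks other windows of 148001 bases hold was not tested, so 1 peak is not read as more than usual.

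The peak of ChIP replicate 1 lay inside the span, at chr20:31365810-31367035, from 15810 to 17035 bases past the 5′ edge. It is 1226 bases wide, and its score, the authors' own value, was 112.7, beside a list median of 173.7 and a minimum of 100.01. It ranks 6536 of 7568 peaks. The peak of ChIP replicate 2 lay before the span, at chr20:31329941-31335203, from 20059 to 14797 bases before the 5′ edge. It is 5263 bases wide, beside a median of 1290 in its list, and its score of 371.13 ranks 3626 of 12831 peaks, where the median is 256.7. The 2 peaks are 30606 bases apart. With scores under 150 left out of both lists, the peak of replicate 1 drops out. The list of replicate 2 begins at 150.01, so this cut could not remove its peak and says nothing about it.

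**Figure D4:**
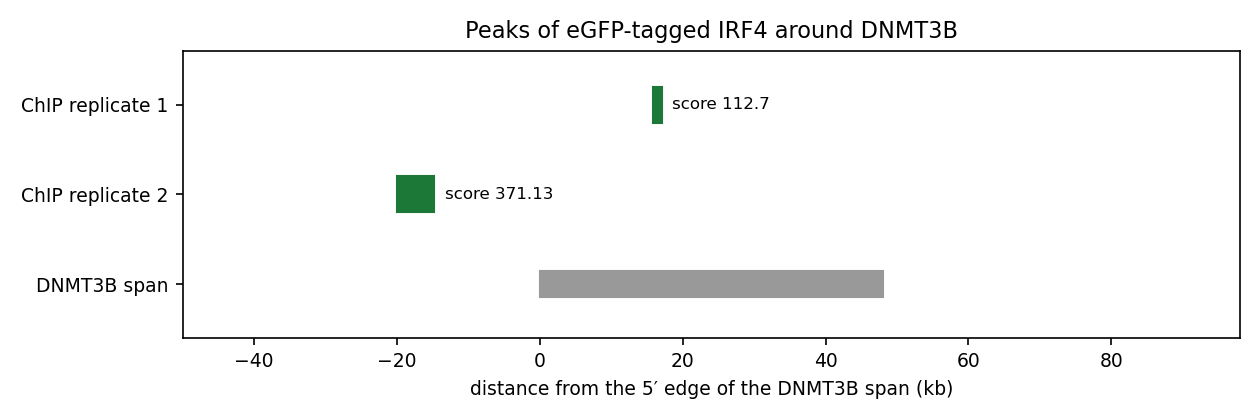
Peaks of the 2 ChIP replicates (y axis) by distance from the 5′ edge of the DNMT3B span in kb (x axis), with the rounded gene span in grey and the authors' score beside each peak. The replicate 1 peak (score 112.7) lies inside the span and the replicate 2 peak (score 371.13) before it.

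In all, 230 peaks of replicate 1 (3.04%) and 457 of replicate 2 (3.56%) lay on chromosome 20. A pair of lists allows no test, and scores from lists that begin at different minimums are not compared with each other. Peaks near DNMT1, DNMT3A and UHRF1 were not analysed here, since the gene positions used are in GRCh38 and the peaks in hg19. A list of 32 further genes of DNA methylation, among them the TET enzymes and methyl-CpG-binding proteins, was likewise not analysed here, as the transcripts of these genes were paired by no table used.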

How the data were processed

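RNA-seq values are the estimated counts and TPM that the authors deposited for each library, 1 row per transcript, per the file headers. The submitters' processing notes name kallisto, sleuth and Bowtie2 and the builds GRCh38 and hg19, without versions or roles. The annotation release is not given in the sources used here. Peak lists carry a score deposited by the authors, whose definition, threshold and input are not given in the sources used here. Their unplaced contigs have hg19 names.

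The 8 transcripts were paired with genes by the rule that chose them. The members and lists were chosen with earlier results of these data known. Since no table paired all transcripts with genes, the sum of each gene's listed transcripts replaced them as 1 row in the table of transcripts, as the design laid down for this case. Estimated counts were rounded and tested with edgeR 4.0.16 in R 4.3.3 (quasi-likelihood, TMM, filterByExpr, two-sided, Benjamini-Hochberg over all rows, threshold 0.05). Standard errors are the absolute log2 fold change over the square root of F. The text names the 4 genes and each listed transcript whatever their values. Alternatives were DESeq2 1.42.0, limma 3.58.1, other filters and scalings, the replicate block and leaving out libraries. The code was tested on data simulated with less spread between libraries than the real ones have. In these, edgeR's common dispersion, its measure of that spread, was 0.2965. The simulation therefore does not show which changes the test could find here. No 2 libraries agreed within sampling noise (chi-square per degree of freedom at least 34.7, where noise gives about 1). The 2 input samples were not analysed here. Promoter sequences are RefSeq's, for GRCh38.p14.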

Additional observations from a re-analysis of the deposited data

How the results depend on the processing

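No gene or listed transcript passed an adjusted p of 0.05 in any of the fits: that reported, 7 other settings, 6 with a library left out, and 1, chosen after the data were seen, without siIRF4 replicate 1 and siCTRL replicate 2. The count of rows past the threshold over the whole table was 0, but 192 with DESeq2 and 12 with limma on log2(TPM + 0.1), in the table with summed genes and in that of transcripts alike, and it stayed at 0 with each library left out. The cause was not tested.

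With each library left out, the log2 fold change ran from -0.057 to 0.21 for DNMT1, from -0.17 to 0.028 for DNMT3A and from -0.65 to -0.19 for DNMT3B. The difference in log2(TPM + 0.1) ran from -0.064 to 0.24 for DNMT1. Among transcripts, the ranges were -0.032 to 0.23 for ENST00000340748.8, -0.13 to 0.16 for ENST00000359526.8 and -0.16 to 0.23 for ENST00000264709.7. With transcripts under a mean of 1 CPM left out, that of ENST00000359526.8 was -0.0063. All other signs were as reported. The DNMT3B peak of ChIP replicate 1 drops out (0 peaks) at a score of at least 150 and in the better-scoring 50% of its list, and that of replicate 2 drops out (0 peaks) in a window of 10 kb. No setting gave a shared peak, but only the window of 100 kb could have added one. The other settings remove peaks or ask for more overlap, so their 0 was fixed by the reported one and says nothing further.

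The replicate number as a block gave log2 fold changes of 0.12 for DNMT1, -0.087 for DNMT3A and -0.51 for DNMT3B, with no call. For DNMT3B the SE was 0.251 with the block and 0.295 without it. Its unadjusted edgeR p was 0.104 with the block and 0.174 without it. Deviations from the group means correlated at 0.20, 0.24 and 0.038 between libraries numbered 1, 2 and 3. The siCTRL library with the highest such correlation bore the same number for siIRF4 replicates 1 and 2. For siIRF4 replicate 3 it was siCTRL replicate 2. The fits reported do not take the numbers to pair the libraries, and these values do not settle whether they do. With 3 libraries a group, the intervals of DNMT3B include a fall of 2-fold and no difference alike.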
